A study of Mus musculus with 4 samples.

Results

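The integrin and laminin genes of the mouse cell line HT22 are described here across knockdown and overexpression of Ntoco, a long noncoding RNA. The members were taken by gene name: every row of the count table named as an integrin alpha or beta subunit or as a laminin alpha, beta or gamma chain. The rule found 35 of 16846 rows. They comprise 24 integrins (17 alpha and 7 beta subunits) and 11 laminins (5 alpha, 3 beta and 3 gamma chains). Of these, 24 passed the filter on low counts and were tested, 16 integrins and 8 laminins, among 12115 genes tested in all.

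HT22 is an immortalised line derived from mouse hippocampal neurons. The 4 groups were cells with a control short hairpin RNA (shRNA; sh-Ctrl), cells with an shRNA against Ntoco (sh-Ntoco, the knockdown), cells with an empty vector (Vector) and cells with a vector that carries Ntoco (Lv-Ntoco, the overexpression). The tables held 2 libraries a group, with 18452588 to 19859041 counted reads each. Since GEO lists 1 sample per group and no label states that its 2 libraries are separate cultures, every p-value below reflects the spread between libraries, which may be technical. The titles number the cells differently by group, while the cell line is given as HT22 for all. No row was named Ntoco, so neither manipulation could be checked on its target. How the vectors were delivered is uncertain, and the labels give no age or genotype. Of 10 neuron markers, 6 had rows, and their summed level was 0.571 to 1.21 CPM (the count relative to the library total) in the 8 libraries, with Map2, Tubb3 and Nefl at or near 0. A neuronal identity was thus not visible in these markers.

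Integrins are receptors that join an alpha and a beta subunit at the cell surface and link the extracellular matrix to the actin cytoskeleton. The beta subunit recruits talin, kindlin and other adaptors, and the pair of subunits sets which matrix protein is bound. Laminins are secreted trimers of an alpha, a beta and a gamma chain, and they form the sheet of a basement membrane together with collagen IV, nidogen and perlecan. In the brain they line blood vessels and the pial surface, and laminin is widely used as a substrate for growing neurons.

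The members with the smallest unadjusted p between the Ntoco vector and the empty vector were laminin chains, so the DNA in front of their genes is shown first. The promoter table from RefSeq (GRCm38.p6) held Lama5, Lamb1 and Lamb2, which are shown. Each window is the 100 bases before the outermost annotated start of the gene, read 5′ to 3′ on the gene's strand. The Lama5 window is chr2:180225905-180226004 on the minus strand, that of Lamb1 is chr12:31265046-31265145 on the plus strand, and that of Lamb2 is chr9:108479747-108479846 on the plus strand. Capitals mark matches to the motifs searched.
Lama5: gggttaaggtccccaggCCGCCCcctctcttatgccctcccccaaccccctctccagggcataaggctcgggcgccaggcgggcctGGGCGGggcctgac
Lamb1: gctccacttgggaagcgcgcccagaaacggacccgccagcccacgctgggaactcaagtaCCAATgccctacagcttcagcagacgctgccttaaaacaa
Lamb2: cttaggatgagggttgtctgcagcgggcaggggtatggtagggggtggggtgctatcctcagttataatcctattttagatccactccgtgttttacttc

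Both strands of each window were searched for 6 motifs. The Lama5 window held 2 matches to the GC box (GGGCGG), which was present in 22.6% of the same windows of 23203 promoters. The Lamb1 window held 1 CCAAT box (CCAAT), present in 19.9% of all windows. The Lamb2 window held no match. The AP-1 site (TGANTCA) was present in 2.76% of all windows, the TATA box (TATAAA) in 6.27%, the E box (CACGTG) in 3.04% and the NF-kB site in 1.41%, and none of these was found in the 3 laminin windows. No motif was shared by the 3 chains, and a match is only a description of the letters. Lamc1 lies on chromosome 1, at 153218922 to 153332786 in the same annotation.

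Levels of different genes are compared in FPKM, the authors' fragment counts divided by gene length and library total, and are given as the mean ± SD over the 8 libraries. Among alpha integrins, Itga5, the fibronectin receptor subunit, was highest at 32.9 ± 5.62 FPKM (SD, n = 8; 24.8 to 41.2). Itgav, which pairs with several beta subunits to bind matrix proteins carrying the RGD motif, followed at 15.4 ± 3.07 FPKM, and its range did not overlap that of Itga5. The laminin receptor subunits Itga6 (11.6 FPKM on average, 6.99 to 14.4) and Itga3 (4.88 FPKM, 0.989 to 10.1) came next. Another laminin receptor subunit, Itga7, averaged 2.69 FPKM, and Itgal, the alpha subunit of the leukocyte integrin LFA-1, averaged 2.56 FPKM. From Itgav downwards, each subunit overlapped its neighbour in the order. Itgae, Itga10, Itga9 and Itga2b lay lower, with means from 0.275 to 0.442 FPKM.

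Among beta integrins, Itgb1, the common partner of most alpha subunits, stood at 118 ± 5.37 FPKM (SD, n = 8). Itgb5, a partner of Itgav, stood at 71.9 ± 20.5 FPKM, and the ranges of both did not overlap each other or that of the next subunit. Itgb7 (5.07 FPKM) and Itgb2 (2.95 FPKM), best known from leukocytes, overlapped each other, and the epithelial subunits Itgb4 (0.679 FPKM) and Itgb6 (0.0883 FPKM) were lower. Itgb1 took 49.1 to 64.1% of the summed beta subunit FPKM in a library and Itgb5 took 29.8 to 46.5%. Itga5 took 37.9 to 57.1% of the summed alpha subunit FPKM, Itgav 18.1 to 26.8%, Itga6 8.64 to 19.3% and Itga3 1.37 to 12.1%. The alpha subunits summed to 56.8 to 83.7 FPKM and the beta subunits to 176 to 230 FPKM, so in every library the beta sum was the higher.

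Lamb1 had 96.4 ± 26.6 FPKM, against 14.1 for Lamb2 and 0.258 for Lamb3. Lamc1 had 60.9 ± 13.4 FPKM and Lamc3 had 0.0691. Lama5 had 7.00 ± 3.12 FPKM, against 0.249 for Lama3. The ranges of these alpha and beta chains did not overlap within their class. Lama5 made up 90.1 to 98.7% of the alpha chain FPKM and Lamb1 82.1 to 89.9% of the beta chain FPKM. The 3 classes were unequal: alpha chains summed to 3.07 to 12.3 FPKM, beta chains to 60.2 to 147 FPKM and gamma chains to 48.1 to 87.1 FPKM. The alpha chain sum was therefore below both others in every library, and lowest in the Ntoco vector libraries, at 3.07 and 3.998 FPKM.

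**Figure D1:**
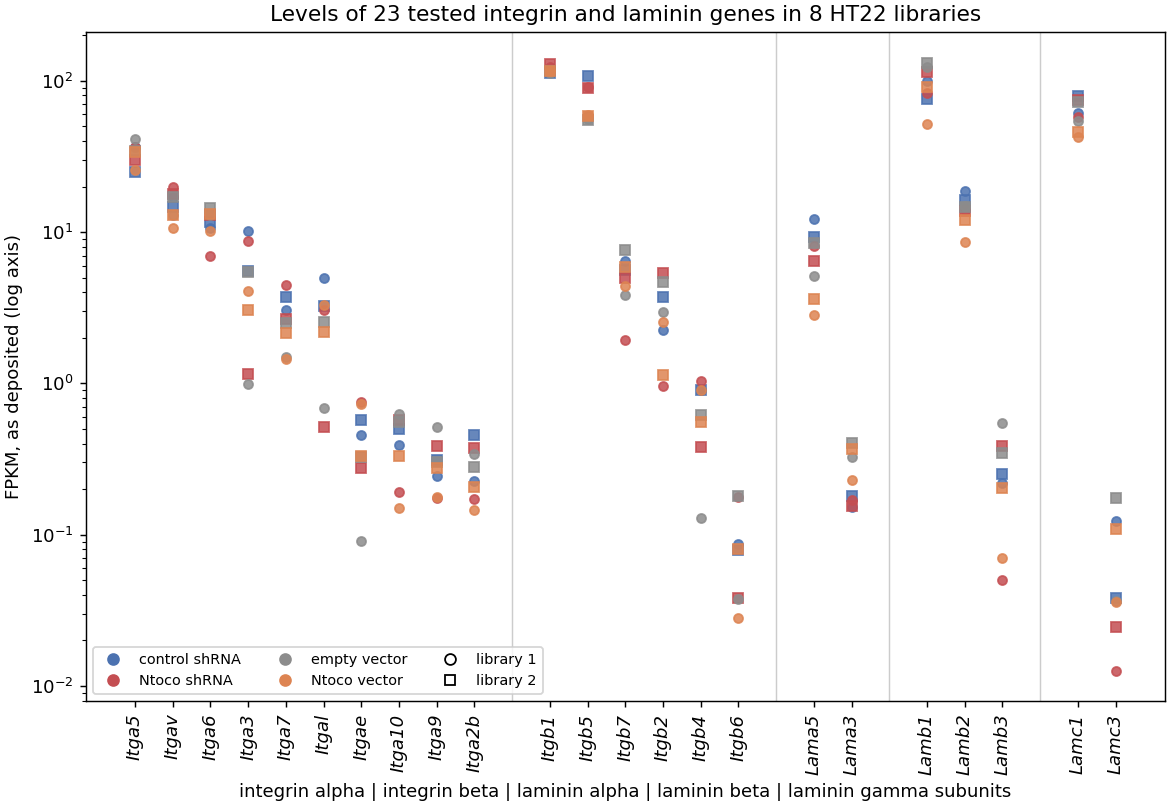
FPKM of 23 tested members on a log axis, grouped by class and ordered by mean, with 1 point per library, coloured by group (circle, library 1; square, library 2). Itgb1 stays within 113 to 128 FPKM in all 8 libraries, while Itga3 runs from 0.989 to 10.1 FPKM.

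Overexpression was compared with the empty vector, which asks which members differed with added Ntoco. No member passed an adjusted p of 0.05 in edgeR's quasi-likelihood test, as no gene of the 12115 did (0%), and DESeq2 called no member and 1 gene. The members nevertheless lay mostly on 1 side. In 13 of 24 members both Ntoco vector libraries were below both empty vector libraries, against 23.1% of all genes, and in 2 (Itgae and Itgb5) both were above, against 24.1%. The median log2 ratio of the members was -0.44, and that of all genes was -0.01. At an unadjusted p under 0.05, 5 members were lower, all of them laminins and among them Lama5, Lamb1, Lamb2 and Lamc1, against 4.09% of all genes, and none was higher, against 3.53% (7.62% in either direction). Which members were lower by that line depended on the fit. With library number as a block, the edgeR unadjusted p was 0.0583 for Lamb2 and 0.0447 for the integrin Itga10. With only the compared groups fitted, it was 0.0518 for Lamb2 and 0.0425 for Lamb3, another laminin. The count of lower members changed when 1 library was left out. It fell without either empty vector library or Ntoco vector library 1, and it rose without either knockdown library, which is outside this comparison. The members' median moved to -0.19 without empty vector library 2 and to -0.20 without Ntoco vector library 1.

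Among the laminins, all 8 log2 ratios were below 0 (50.5% of all genes were), with a median of -0.60. In 6 chains (75%) both Ntoco vector libraries were lower, against 23.1% of all genes. Values are in CPM scaled with edgeR's TMM factors. Lama5, the main alpha chain of these cells and of mature vessel basement membranes, measured 64.6 and 102 CPM in the empty vector libraries and 34.9 and 44.2 CPM in the Ntoco vector libraries. The groups did not overlap, and the means were 83.5 ± 26.7 and 39.5 ± 6.59 CPM (SD, n = 2). The log2 ratio was -1.08 (SE 0.29), a 2.11-fold lower level, with an edgeR unadjusted p of 0.00603 and an adjusted p of 0.598. DESeq2 gave Lama5 an adjusted p of 0.284. Leaving out 1 library at a time gave log2 ratios from -1.37 (without empty vector library 1) to -0.71 (without empty vector library 2). Among all 8 libraries, the lowest Lama5 values were those with the Ntoco vector.

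Lamb1, the beta chain of the widely expressed laminins, measured 752 and 779 CPM with the empty vector and 308 and 543 CPM with the Ntoco vector. The pair with the empty vector was close together and the pair with Ntoco was wide, yet the groups did not overlap. The log2 ratio was -0.85 (SE 0.30). Lamb2, the beta chain of synapses and kidney filters, measured 88.4 and 83.0 CPM against 49.95 and 69.0 CPM, a log2 ratio of -0.53 (SE 0.21). For Lamb2 as well, every Ntoco vector value lay below every empty vector value.

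Lamc1, the gamma chain of most laminins, measured 433 and 557 CPM with the empty vector and 330 and 356 CPM with the Ntoco vector, a log2 ratio of -0.53 (SE 0.22). The Ntoco vector values of Lamc1 were close together, and the groups did not overlap. The folds of Lamb1, Lamb2 and Lamc1 were 1.80, 1.44 and 1.44, and each had an adjusted p of 0.598 in edgeR. For Lama5, Lamb2 and Lamc1, the 2 Ntoco vector libraries were the lowest of all 8, shRNA libraries included. Lamb1 was the exception, since its control shRNA libraries held 588 and 426 CPM. The sign of these 4 ratios was negative in every alternative run, but their size depended on single libraries. Lamb1 was at -0.49 without Ntoco vector library 1 and at -1.31 without library 2, and Lamb2 was at -0.31 and -0.78. Lamc1 was at -0.33 without empty vector library 2 and at -0.70 without empty vector library 1.

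Further laminin chains were scarce. Lamb3, a beta chain of epithelial laminin, measured 2.46 and 1.49 CPM with the empty vector and 0.309 and 0.882 CPM with the Ntoco vector, a log2 ratio of -1.73 (SE 0.89). Lamb3 thus had the largest log2 ratio of the tested members in this comparison, with the wide error of a low count. Lama3, an alpha chain of epithelial laminin, measured 4.06 and 4.89 CPM against 2.78 and 4.47 CPM, and these overlapped. Lamc3 measured 0.321 and 1.49 CPM against 0.309 and 0.938 CPM, and these overlapped too.

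**Figure D2:**
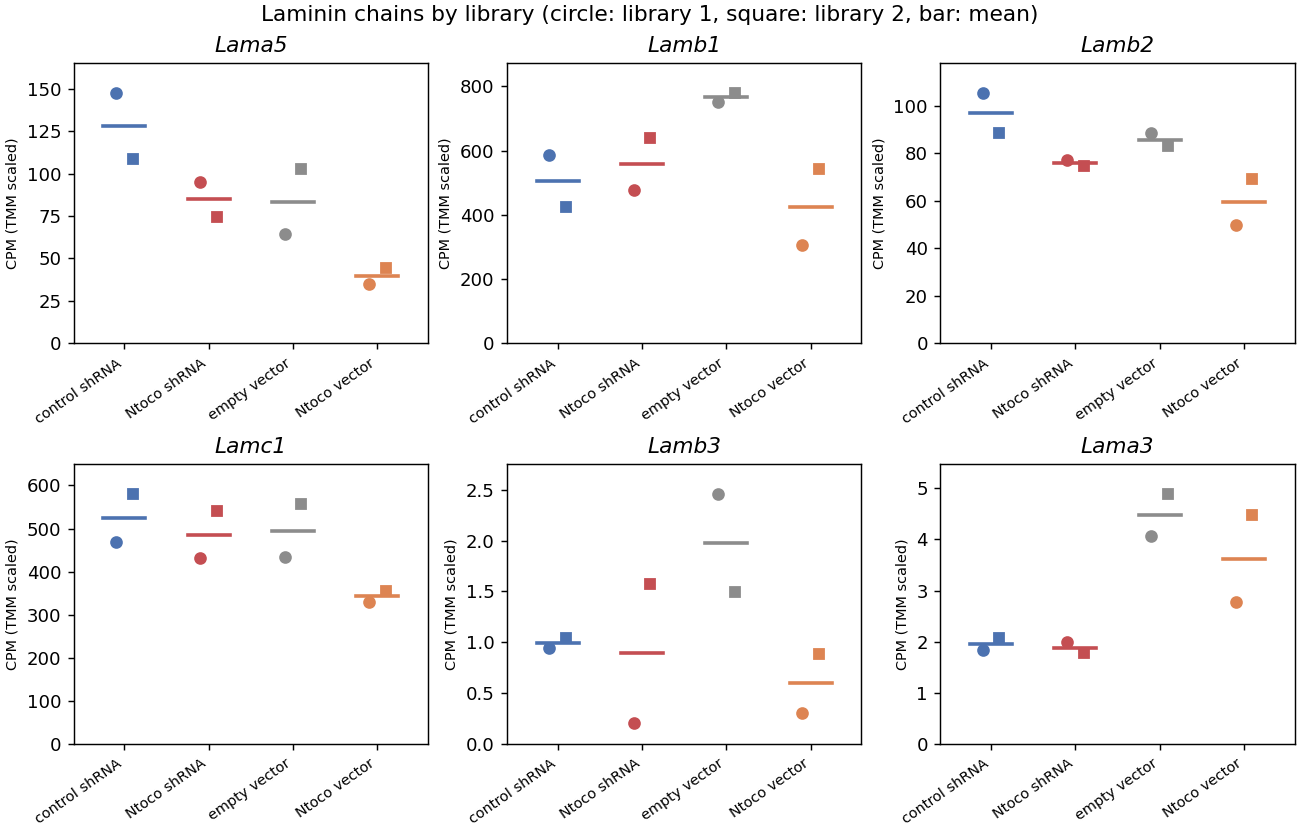
CPM of 6 laminin chains by group, with 1 symbol per library (circle, library 1; square, library 2) and a bar at the group mean, on axes that start at 0. In Lama5, Lamb2 and Lamc1 both Ntoco vector libraries sit below the other 6, and in Lama3 both vector groups sit above both shRNA groups.

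Integrins leaned less to 1 side: 7 of 16 (43.8%) were lower in both Ntoco vector libraries, against 23.1% of all genes. In 2 (12.5%) both were higher, against 24.1% of all genes, and the median log2 ratio was -0.20. The subunits with the highest levels differed little. Itgb1 measured 496 and 493 CPM with the empty vector and 497 and 494 CPM with the Ntoco vector, a log2 ratio of 0.00 (SE 0.16). Itgb5 measured 198 and 187 CPM against 206 and 201 CPM, a ratio of 0.08 (SE 0.26), so its groups were apart by little more than a few CPM. The fibronectin subunit Itga5 measured 193 and 155 CPM against 118 and 154 CPM, a ratio of -0.36 (SE 0.27). Itgav measured 139 and 175 CPM against 110 and 135 CPM, also -0.36 (SE 0.21), and the laminin receptor Itga6 measured 82.9 and 88.3 CPM against 63.5 and 81.1 CPM, -0.24 (SE 0.28). Itga5, Itgav and Itga6 were each lower in both Ntoco vector libraries, Itga5 only narrowly (153.7 CPM against 154.7 CPM for the closest values).

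Low-level subunits showed the largest integrin ratios. Itga10, a collagen receptor subunit of cartilage, measured 3.32 and 2.83 CPM with the empty vector and 0.772 and 1.71 CPM with the Ntoco vector, a log2 ratio of -1.31 (SE 0.63). Itgae, an alpha subunit of intraepithelial T cells, measured 0.374 and 1.29 CPM against 2.94 and 1.32 CPM, a ratio of 1.35 (SE 0.76), the only tested member above 1. Itgb2, the beta subunit of leukocyte integrins, measured 9.04 and 13.7 CPM against 7.57 and 3.36 CPM, a ratio of -1.05 (SE 0.75). None of the 3 groups of values overlapped, and none had an unadjusted p under 0.05. Itgb7, Itga3, Itgal, Itga7, Itgb4 and Itgb6 overlapped between the groups, and Itga9 and Itga2b were lower in both Ntoco vector libraries with ratios of -0.88 (SE 0.55) and -0.84 (SE 0.61).

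**Figure D3:**
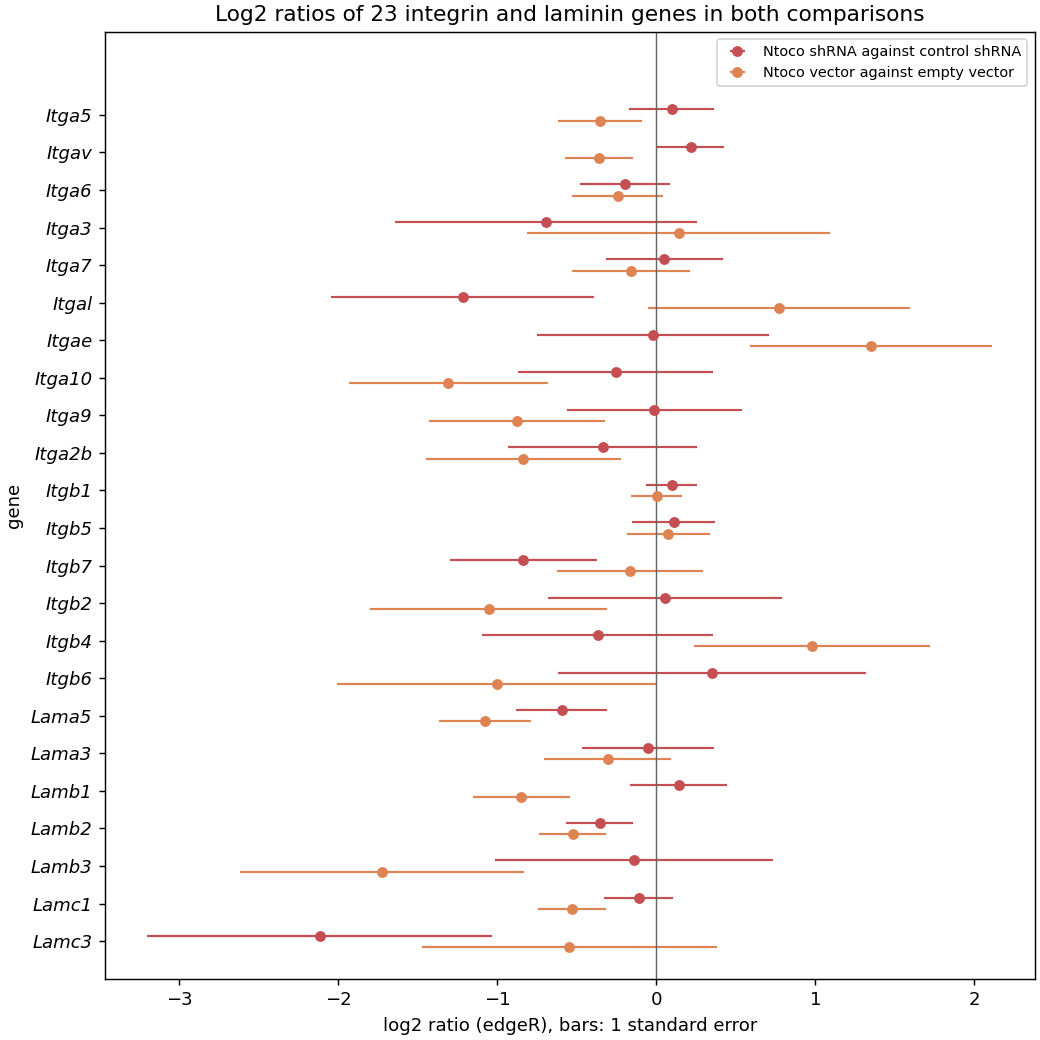
Log2 ratios of 23 tested members for the Ntoco shRNA against the control shRNA and for the Ntoco vector against the empty vector, with bars of 1 standard error from edgeR. All 7 laminins shown lie left of 0 for the vector comparison, from -1.73 for Lamb3 to -0.31 for Lama3, while Itgb1 lies at 0.00.

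Knockdown was compared with the control shRNA, which asks which members differed when Ntoco was targeted. No member and no gene passed the adjusted threshold in edgeR (0% of 12115), DESeq2 called no member and 15 genes, and no member had an unadjusted p under 0.05, against 3.12% of all genes (1.61% lower and 1.51% higher). In 5 of 24 members (Itgal, Itgb7, Lama5, Lamb2 and Lamc3) both knockdown libraries were below both controls, against 14.1% of all genes. In 1 (Itgb1) both were above, against 15.1%. The members' median log2 ratio was -0.12 beside 0.01 for all genes, and 16 of 24 ratios were below 0 beside 49.4% of genes.

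Of the laminins, 7 of 8 had a ratio below 0 after knockdown, with a median of -0.14. Lama5 measured 147 and 109 CPM in the controls and 95.2 and 74.5 CPM in the knockdown, a log2 ratio of -0.59 (SE 0.29). The values were apart, and edgeR gave an adjusted p of 0.992. Lamb2 measured 105 and 88.5 CPM against 77.0 and 74.5 CPM, a ratio of -0.36 (SE 0.21). Lamc1 measured 469 and 581 CPM against 431 and 541 CPM and Lamb1 588 and 426 CPM against 478 and 639 CPM. Both chains overlapped, with ratios of -0.11 and 0.14. Lamc3 had the largest ratio, -2.11 (SE 1.08), at 1.05 and 0.311 CPM against 0.105 and 0.197 CPM, which is near the limit that a count of 0 allows (3 counts, or 0.151 to 0.163 CPM by library). Lamb3 measured 0.942 and 1.04 CPM against 0.209 and 1.58 CPM and overlapped.

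The main integrins overlapped or lay close between the shRNA groups. Itgb1 measured 498 and 457 CPM in the controls and 506 and 515 CPM in the knockdown, a log2 ratio of 0.10 (SE 0.16), and was thereby the member higher in both libraries. Itgb5 measured 197 and 348 CPM against 300.2 and 288 CPM, so its 2 controls lay to either side of the knockdown. Itga5 measured 163 and 107 CPM against 160 and 128 CPM, Itgav 176 and 144 CPM against 196 and 174 CPM, and Itga6 65.0 and 68.3 CPM against 41.5 and 74.9 CPM, all overlapping. Itgb7, the beta subunit of gut-homing lymphocyte integrins, measured 36.8 and 30.9 CPM against 10.7 and 27.2 CPM, a ratio of -0.84 (SE 0.46). Most of that came from knockdown library 1: without it the ratio was -0.32, and without library 2 it was -1.66. Itga10 measured 1.99 and 2.44 CPM against 0.941 and 2.76 CPM and overlapped, as the low subunits Itga2b, Itga9 and Itgb6 did.

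The difference between both effects was tested directly as the overexpression ratio minus the knockdown ratio. No member and no gene passed in edgeR (0% of 12115), DESeq2 called no member and 14 genes, and no member had an unadjusted p under 0.05, against 6.92% of all genes (3.35% lower and 3.57% higher). The difference was below 0 in 18 of 24 members and in 51.6% of all genes. The smallest edgeR unadjusted p was that of Lamb1, 0.0508, with a difference of -0.99 on the log2 scale (SE 0.43). It was -0.63 without Ntoco vector library 1 (unadjusted p 0.155) and -1.45 without library 2 (unadjusted p 0.00824). The differences of Lama5 (-0.49, SE 0.40), Lamb2 (-0.17, SE 0.30) and Lamc1 (-0.42, SE 0.30) were within 2 standard errors of 0. With 1 library left out, that of Lama5 ran from -0.78 (without empty vector library 1) to -0.11 (without empty vector library 2), and that of Lamc1 from -0.59 to -0.22 without the same libraries. The laminin ratios of overexpression and knockdown were therefore not shown to differ, nor to be opposite. Lama5 and Lamb2 were lower in both libraries under either manipulation. Between the 2 controls, both chains were also lower in both empty vector libraries than in both control shRNA libraries. Their log2 ratios there were -0.62 (SE 0.29) and -0.18 (SE 0.21).

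The empty vector and the control shRNA, the 2 controls, were also compared, since they set the baselines. No member and no gene passed in edgeR (0% of 12115), while DESeq2 called no member and 281 genes. At an unadjusted p under 0.05, 1 member was higher (Lama3), against 6.45% of all genes, and none was lower, against 6.1% (12.5% in either direction). Both vector libraries were above both controls in 7 members and below them in 6, against 24.6% and 26.5% of all genes, and 12 of 24 ratios were below 0, against 50.3%. Lama3 measured 1.83 and 2.08 CPM with the control shRNA and 4.06 and 4.89 CPM with the empty vector, a log2 ratio of 1.19 (SE 0.41), and edgeR gave an adjusted p of 0.355. Its share of the laminin alpha chain FPKM was 5.97 and 4.61% with the empty vector and 7.43 and 9.22% with the Ntoco vector, against 1.24 to 2.35% in the 4 shRNA libraries. Lamb1 was at 752 and 779 CPM with the empty vector, above both control shRNA libraries. Its lower level with the Ntoco vector was thus relative to the higher of 2 baselines, and against the control shRNA libraries it overlapped.

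Several integrins varied more between the libraries of a group than between groups. Itga3, a laminin receptor subunit, measured 53.4 and 28.0 CPM in the control shRNA libraries, 44.6 and 5.82 in the knockdown, 5.45 and 29.2 with the empty vector and 21.8 and 16.3 with the Ntoco vector. Its highest library held 9.79 times the lowest. Itgal measured 26.9 and 17.0 CPM, 16.3 and 2.66 CPM, 3.90 and 13.9 CPM, and 18.4 and 12.0 CPM in the same order, a span of 10.1 times. Both were lowest in knockdown library 2 and empty vector library 1. Itgae (1.78, 2.18, 2.88, 1.04, 0.374, 1.29, 2.94 and 1.32 CPM) and Itgb4, the beta subunit of hemidesmosomes (5.81, 5.55, 6.49, 2.32, 0.856, 3.97, 5.92 and 3.59 CPM), had their lowest values in the same 2 libraries. Itgb4 and this grouping were chosen after the values were seen, and no test was made of it.

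The ratios of these subunits moved with those libraries. The knockdown ratio of Itga3 was -0.69 (SE 0.95), and it was 0.13 without knockdown library 2 and -2.81 without knockdown library 1. Its overexpression ratio was 0.14 (SE 0.95), and it was -0.61 without empty vector library 1 and 1.81 without empty vector library 2. Itgal had a knockdown ratio of -1.22 (SE 0.83), which was -0.43 without knockdown library 2 and -3.05 without library 1. Its overexpression ratio of 0.77 (SE 0.82) was 0.13 without empty vector library 1 and 1.96 without library 2. The overexpression ratio of Itgae, 1.35, was 0.73 without empty vector library 1, 2.49 without library 2 and 0.67 without Ntoco vector library 1. No direction could therefore be given for Itga3.

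Summed markers of 4 other cell types were lowest in the same 2 libraries, and those of others were not. The summed CPM of the astrocyte markers (5 of 6 had rows), in the order used above, was 45.5, 42.9, 53.6, 14.1, 8.40, 30.8, 39.6 and 32.0, nearly all of it from Aldh1l1 and S100b. Gfap, the best-known astrocyte marker, went the other way: it was highest in knockdown library 2 (1.23 CPM) and empty vector library 1 (1.18 CPM), against 0.515 to 0.727 CPM elsewhere. That of the fibroblast markers (6 of 6) was 3392, 3359, 4846, 1464, 1333, 2316, 2341 and 2114, nearly all of it from Col1a1 and Col1a2, with Dcn and Lum at or near 0. The endothelium and pericyte markers (6 of 7) summed to 109 to 257 CPM, nearly all from Pdgfrb. The microglia and macrophage markers (6 of 7) summed to 1.92 to 6.28 CPM, most of it from Csf1r and Cx3cr1. These 4 sums were lowest in knockdown library 2 and empty vector library 1, and their part in the integrin values was not tested. Further genes did not follow their sum: Tek was highest in knockdown library 2 (1.775 CPM) and Cdh5 in empty vector library 1 (0.802 CPM). Tyrobp, of the microglia list, and Pdgfra, of the fibroblast list, were lowest in neither of these libraries. The oligodendrocyte lineage markers (6 of 7) summed to 376, 261, 319, 193, 218, 445, 205 and 311 CPM, lowest in knockdown library 2 and next in Ntoco vector library 1. The platelet and leukocyte markers (7 of 8) summed to 0.856 to 2.41 CPM, lowest in empty vector library 1 and next in knockdown library 1. Ptprc, the pan-leukocyte gene, was at 0 in all 8 libraries. Itgal, Itgb2 and Itgb7, which are best known from leukocytes, were thus counted in libraries with almost no leukocyte marker RNA. In bulk RNA, fewer cells of a type and less RNA per cell cannot be told apart.

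Itgb2 did not follow that order. It measured 6.60 and 10.4 CPM in the control shRNA libraries, 2.72 and 14.9 CPM in the knockdown, 9.04 and 13.7 CPM with the empty vector and 7.57 and 3.36 CPM with the Ntoco vector. Its highest value was in knockdown library 2, where Itgal was lowest, although the proteins of both genes form 1 receptor in leukocytes. Its knockdown ratio was 0.05 (SE 0.73), with -1.65 and 0.80 as the extremes when 1 library was left out.

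**Figure D4:**
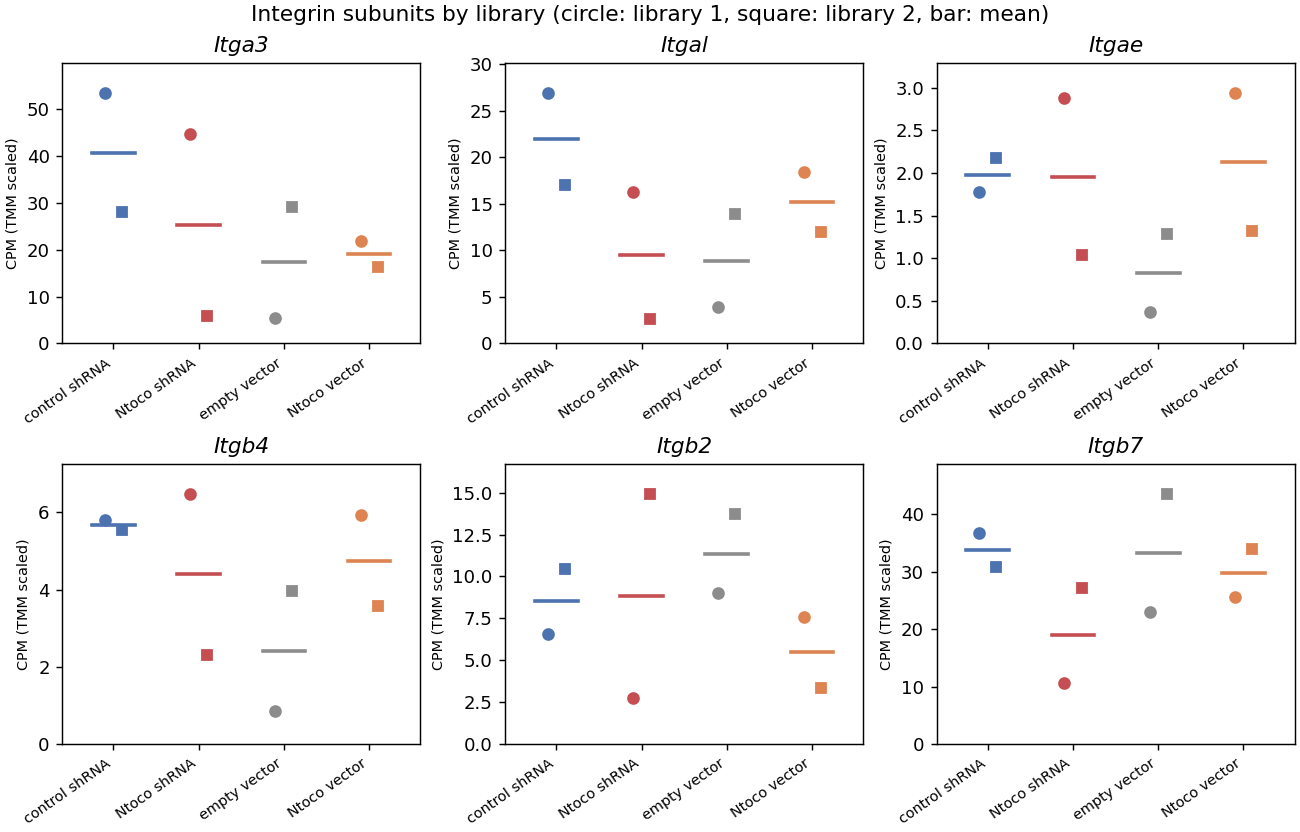
CPM of 6 integrin subunits by group, with 1 symbol per library (circle, library 1; square, library 2) and a bar at the group mean, on axes that start at 0. Itga3, Itgal, Itgae and Itgb4 are lowest in empty vector library 1 and knockdown library 2, while Itgb2 is highest in knockdown library 2.

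The genes that work with integrins and laminins were described from 4 lists, by the same counts. The lists were chosen with earlier results of these data known. Of the integrin adaptors and activators, which couple the beta tail to actin, 44 were tested. In the knockdown, 2 were higher and 8 lower in both libraries (15.1% and 14.1% of all genes), with a median log2 ratio of -0.16. The adaptors' median log2 level, taken relative to the mean of the control shRNA libraries, was -0.04 in knockdown library 1. In knockdown library 2 it was -0.40, against 0.06 and -0.06 in the controls. The adaptors with the smallest p in the knockdown were Flna, an actin crosslinker (-0.80, SE 0.23), Vcl, or vinculin (-0.85, SE 0.32), and Lpxn, a paxillin relative (1.24, SE 0.46). In the overexpression, 7 adaptors were higher and 10 lower (24.1% and 23.1% of all genes), the median was 0.00, and the smallest p values were those of the focal adhesion protein Zyx (-0.63, SE 0.18), Lpxn (-0.95, SE 0.46) and the kinase Fyn (-0.82, SE 0.41). Both counts of adaptors in the overexpression lay near the background.

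Of the basement membrane partners of laminin, 14 were tested. With the Ntoco vector none was higher and 4 were lower in both libraries, against 24.1% and 23.1% of all genes, so the count of lower partners lay near the background. Their log2 ratios were below 0 in 13 of 14, against 50.5% of all genes, and the median was -0.39. The partners' median log2 level, taken relative to the mean of the control shRNA libraries, was -0.38 and 0.09 in the empty vector libraries. It was -0.16 and -0.22 in the Ntoco vector libraries, so empty vector library 1 lay below both. In the overexpression, the partners with the smallest p were the proteoglycan Agrn (-0.83, SE 0.39) and the collagen IV chains Col4a5 (-0.36, SE 0.18) and Col4a2 (-0.41, SE 0.24). In the knockdown, 4 partners were higher and 3 lower, against 15.1% and 14.1% of all genes, with a median of 0.16. There Col18a1, the precursor of endostatin, had a ratio of 0.98 (SE 0.31), Ntn4, a laminin-related netrin, 1.83 (SE 0.66), and Col4a1 -0.74 (SE 0.32). Ntn4 was under 1 CPM in every library.

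Of the non-integrin laminin receptors, 15 were tested, including dystroglycan and the enzymes that attach its laminin-binding sugars. In the overexpression 5 were higher and 2 lower, with a median of 0.15, led by Rpsa (0.44, SE 0.17), Sgcb (-0.43, SE 0.25) and the syndecan Sdc1 (0.41, SE 0.26). Rpsa is a ribosomal protein gene with near-identical pseudogenes, so its counts are uncertain. In the knockdown 3 were higher and 1 lower, with a median of -0.03, with the syndecan Sdc4 at 0.54 (SE 0.24) and Bcam, the Lutheran laminin receptor, at -1.05 (SE 0.60). The background shares for these counts are those given for the adaptors.

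Of the other extracellular ligands of integrins, 25 were tested. In the overexpression 1 was higher and 5 lower in both libraries (4% and 20%), against 24.1% and 23.1% of all genes. The count of lower ligands thus lay near the background. The median was -0.13, and the ligands with the smallest p were Col5a1 (-0.48, SE 0.17), the fibronectin gene Fn1 (-0.75, SE 0.31) and Adam9 (-0.40, SE 0.18). In the knockdown 4 were higher and 4 lower (16% each), near the 15.1% and 14.1% of all genes. The median was 0.00, and the smallest p values were those of Angptl4 (1.56, SE 0.36), Postn (1.89, SE 0.60) and L1cam (-0.95, SE 0.32). Postn was under 1 CPM in every library. EdgeR called no gene of the 4 lists in either comparison, and DESeq2 called 1, Angptl4 in the knockdown. Fn1 and its receptor subunit Itga5 were both lower in both Ntoco vector libraries, Itga5 only narrowly.

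The 11 members that were not tested had at most 9 counts in any library. They were Itga1, Itga2, Itga4, Itga8, Itga11, Itgam, Itgax and Itgb3 among integrins, and Lama1, Lama2 and Lama4 among laminins, and 7 of the 11 were at 0 in at least 4 libraries. Differences of these genes were not detectable at this depth, where a count of 0 allows up to 0.151 to 0.163 CPM by library. They include the collagen receptor subunits Itga1 and Itga2, the beta subunit of platelets (Itgb3), and the alpha chains of embryonic, muscle and endothelial laminins (Lama1, Lama2 and Lama4). Of the tested members, Itga7, Itgav, Itgb4, Lama3 and Lamc3 have exons that overlap a gene annotated on the opposite strand in GENCODE M21. Whether reads were counted by strand is not given in the sources used here, so reads of such partners may be included in these 5.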

How the data were processed

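Polyadenylated RNA of HT22 cells was sequenced, from TRIzol extracts and with a stranded kit, per the labels' protocols. The authors deposited whole-number read counts per gene without normalization, and FPKM values. Trimmomatic, HISAT2, Cufflinks, HTSeq, DESeq and the build mm10 are listed in the submitters' processing notes. Their versions and settings: not given in the sources used here. The deposited FPKM equalled count per gene length and library total in 12615 of 12615 genes checked (tolerance 0.01), so both tables hold the same measurements.

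Each column was placed in a group by the role its name gives: control shRNA, other shRNA, vector alone or overexpression. The names of the targeted columns hold AK rather than Ntoco, so their link to Ntoco rests on that role. Of the columns, 0 were left out. Counts were filtered with filterByExpr (minimum count 10), scaled with TMM factors and tested with edgeR 4.0.16 (quasi-likelihood F-test, R 4.3.3) in a single model of all 4 groups. The residual degrees of freedom were 4, the prior degrees 3.85, and the biological coefficient of variation 28%. P-values were adjusted by Benjamini-Hochberg over all 12115 genes, with a threshold of 0.05. The scripts were tested on simulated data. Alternatives were RLE size factors, no filter, DESeq2 1.42.0, a fit of the compared groups alone, a replicate block, and leaving out each library.

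Full values are given for members with an unadjusted p under 0.05, for the 5 largest log2 ratios of either comparison, and for the 8 integrins and 6 laminins with the highest mean FPKM, and of each list for the 3 members with the smallest p. The members and gene lists were chosen with earlier results of these data known. All 35 members matched RefSeq (GRCm38.p6) by Entrez identifier, which gave the coordinates. Some adaptors, partners, receptors and ligands listed had no row or too few counts. Some genes are not reported here by name; they remain in the counts and medians. Protein sequences were not used here.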

Additional observations from a re-analysis of the deposited data

How the results depend on the processing

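No member passed the adjusted threshold under any setting run. Of 605 recomputed log2 ratios of named members, 573 kept their direction and their side of the threshold, and 32, in 16 of 47 ratios, changed sign. The cause was not tested. DESeq2 called 15 genes in the knockdown, 1 in the overexpression, 281 between controls and 14 for the difference. The fit of only the compared groups called 1 gene in the overexpression and 128 between controls, and gave 2 members higher between controls at an unadjusted p under 0.05. Without a filter, 3 genes were called between controls. For the difference, 1 member was lower at an unadjusted p under 0.05 without a filter and 1 with DESeq2. The overexpression ratio of Itgb1 was -0.003875 with RLE size factors, -0.003874 with DESeq2 and -0.011 in the fit of the compared groups. RLE scaling moved the median of all genes by less than 0.02.

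The library numbers showed no pairing common to all groups. Correlations of same-numbered deviations ran from -0.375 (Ntoco shRNA with empty vector) to 0.363 (control shRNA with Ntoco shRNA). For the empty vector with the Ntoco vector the correlation was -0.215. Whether libraries were paired within the shRNA groups cannot be told from these values. With the replicate block, 1 member was lower at an unadjusted p under 0.05 in the knockdown, the knockdown ratio of Itgb2 was -0.10 and the overexpression ratio of Itga3 was -0.064. The block changed no adjusted call of a member.

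When 1 library was left out (the lone library is then assumed to vary like the other groups), genes called ranged from 0 to 1 in the knockdown, 0 to 25 in the overexpression, 0 to 97 between controls and 0 to 1 for the difference. Members lower at an unadjusted p under 0.05 ranged from 0 to 3 in the knockdown, 0 to 7 in the overexpression, 0 to 5 between controls and 0 to 3 for the difference, and members higher from 0 to 1, 0 to 2, 0 to 2 and 0 to 2. The members' median ranged from -0.58 to -0.19 in the overexpression, -0.17 to 0.15 between controls and -0.51 to -0.080 for the difference. Knockdown ratios that crossed 0 were those of Itga10 (-1.23 to 0.31), Itga3 (-2.81 to 0.13), Itga5 (-0.18 to 0.43), Itga6 (-0.69 to 0.16), Itgae (-0.94 to 0.54), Itgb2 (-1.65 to 0.80), Itgb5 (-0.24 to 0.57), Lamb1 (-0.086 to 0.39), Lamb3 (-2.21 to 0.66) and Lamc1 (-0.28 to 0.046). Overexpression ratios that did were those of Itga3 (-0.61 to 1.81), Itgb1 (-0.001566 to 0.009266), Itgb7 (-0.55 to 0.37) and Lamc3 (-1.54 to 0.94). The ratio of Lamc1 between controls (-0.28 to 0.084) and the difference of Lamb2 (-0.42 to 0.045) also crossed 0. Members under 1 CPM rest on few counts, and there are 2 libraries a group; how much depth and library spread each limit the comparisons was not tested.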
